A study of Mus musculus with 8 samples.

Results

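The comparison described here sets epididymal tissue of a male mouse sample raised on a low protein diet against epididymal tissue raised on a control diet. It takes 2 of the 8 arrays of the series, chosen by their labels, with 1 array per diet. The other 6 arrays hold sperm (3 control, 2 low protein and 1 caloric restriction) and enter only where a sperm value is set beside an epididymal one. All mice were of the strain labelled C57/Bl6, and the males of both groups had been kept on their diet until an age of 9 to 12 weeks. The labels do not say how many animals gave each tissue sample, which part of the epididymis was taken, or whether sperm had been removed from it. With 1 array per diet there is no spread between replicates, so no difference in epididymis has a test or an error, and every value describes these 2 arrays.

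The epididymis is the coiled duct in which sperm leaving the testis mature and are stored. Its lining holds principal cells, which secrete proteins into the lumen, clear cells, which acidify the lumen, and basal cells. Smooth muscle surrounds the duct, and a stroma of fibroblasts, vessels and macrophages fills the space between its coils. Macrophages clear dying cells and, with complement and antimicrobial peptides such as beta-defensins, defend the duct against microbes.

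Levels are log2 intensities, so a difference of 1 is a 2-fold difference, and a negative difference means a lower level under low protein. Of 19411 named genes, 13587 were above the filter on dim genes (mean of the 2 epididymis arrays above log2 5.51). Their median difference was -0.01 and the SD of the differences was 0.19. In all, 82 genes (0.604%) were higher and 151 (1.11%) lower under low protein by at least 0.5, which is 1.41-fold. At a difference of at least 1 there were 1 gene higher (0.00736%) and 10 lower (0.0736%). Higher genes made up 35.2% of those past 0.5, and 45.2% after each array was centred on its median.

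By the SD of the differences and by the genes apart by at least 0.5, pairs of sperm arrays from the same diet differed more than these 2 tissue arrays did. Over the same genes the SD of the differences was 0.22, 0.26 and 0.31 for the 3 pairs of control sperm arrays, and 0.52 for the low protein pair. Genes apart by at least 0.5 numbered 233 between the tissue arrays, 412, 665 and 1437 between control sperm arrays, and 4201 between low protein sperm arrays. Genes apart by at least 1 numbered 11 between the tissue arrays, 9, 17 and 34 between control sperm arrays, and 827 between low protein sperm arrays. Sperm RNA is another material, so these spreads are not the error of the tissue values. Dim genes scattered more: the SD was 0.23 over the dimmest 2718 genes and 0.14 over the brightest 2717, and 1.84% of the dimmest against 0.331% of the brightest were lower by at least 0.5.

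**Figure D1:**
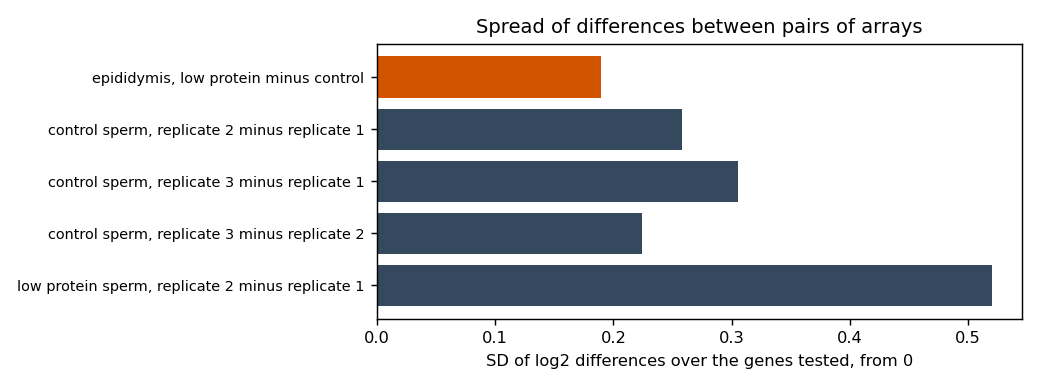
SD of log2 differences over the 13587 genes tested for the epididymis pair (orange) and for pairs of sperm arrays of 1 diet (dark bars). The epididymis pair has the shortest bar at 0.19, and the low protein sperm pair the longest at 0.52.

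Markers of the duct wall and lining were measured on both arrays. The smooth muscle myosin gene Myh11 was at 11.8 on both arrays, and the muscle actin gene Acta2 was at 12.7 on both. The basal cell keratin gene Krt5 was at 8.57 under control and 8.50 under low protein. The clear cell proton pump gene Atp6v1b1 was at 7.05 and 7.24. Several genes known from the proximal duct were below the filter on both arrays: the lipocalin genes Lcn5 (5.22 and 4.93), Lcn8 (4.73 and 5.21), Lcn9 and Lcn10 and the ribonuclease gene Rnase10. Of 20 proximal genes with a probe set of their own, 9 passed the filter, with a median difference of 0.03. Of these 9, 5 were higher and 4 lower under low protein, against 53.9% of all genes lower. Among them, Adam7 was at 12.49 under control and 12.67 under low protein, Lcn12 at 10.78 and 10.99, and Gpx5 at 7.25 and 6.84. Rnase9 (-0.55) was the 1 past 0.5, against 1.11% of all genes lower by at least 0.5. The fat cell hormone gene Adipoq was below the filter as well (4.06 and 3.55), and so were Svs2, Svs4, Svs5 and Svs6 of the seminal vesicle. Of the other male tract list, Svs1 (0.36) and Cyp17a1 (-0.43) passed, and of the blood list the red cell gene Slc4a1 (0.30). Transcripts of sperm were measured in the tissue: Prm1, which encodes a protamine that compacts the DNA of sperm, was at 6.57 under control and 6.78 under low protein, and the mitochondrial capsule gene Smcp was at 10.5 on both. The sperm and spermatid list of 30 genes had a summed signal on the low protein array of 100.4% of that on the control array. Its 20 tested genes had a median difference of 0.02. The transition protein gene Tnp1 (-0.77) was the 1 of the 20 past 0.5, against 1.11% of all genes lower by at least 0.5.

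Among the genes above the median level, the most strongly lower under low protein included complement, secreted and macrophage genes. C4bp, which encodes a binding protein that restrains complement, was at 7.83 under control and 6.27 under low protein, 2.95-fold lower. C7, a component of the membrane attack complex, was at 10.0 and 9.18, a difference of -0.86. Glb1l3, a beta-galactosidase-like gene, was at 8.40 under control and differed by -1.39, which is 2.63-fold lower. Wfdc13, of the whey acidic protein family of protease inhibitors, was at 8.66 under control and 7.65 under low protein. The beta-defensin gene Defb42 was at 9.26 and 8.50.

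Of the others among the 12 lowest, Lyz2 (the lysozyme of macrophages) differed by -0.79 and Laptm5 (a lysosomal membrane protein of blood cells) by -0.76. Rgs5, a regulator of G protein signalling found in pericytes, differed by -0.83, and Ramp3, a partner of calcitonin-family receptors, by -0.69. Bmi1, a Polycomb subunit, differed by -0.86, Smim27 by -0.79 and the cornified envelope gene Lce6a by -0.71.

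Below the median level, 7 more genes were lower by at least 1. The largest difference of all was that of Car4, a membrane-bound carbonic anhydrase, at 7.42 under control and 5.59 under low protein (3.55-fold lower). Cd36, a fatty acid transporter of fat cells, macrophages and capillaries, was at 6.73 and 5.19, or 2.92-fold lower. The beta-defensin gene Defb23 was at 6.43 and 5.11. The receptor gene C3ar1, for the complement fragment C3a, was at 6.97 and 5.97. Nlrp5-ps, a pseudogene, and BC048679 differed by -1.09 and -1.05. Mpeg1, a pore-forming protein of macrophages, lay just under the median of the genes tested and went from 7.32 to 6.32.

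Genes higher under low protein were fewer and of mixed function. Lgalsl, a galectin-like gene, was at 6.86 under control and 7.96 under low protein, 2.14-fold higher. AI506816 was at 7.29 and 8.25, and the amylase gene Amy1 at 7.50 and 8.29. Amylase genes are near-identical copies, so the signal may not be of 1 gene. Ormdl2, a regulator of sphingolipid synthesis, differed by 0.73, Arl1, a small GTPase of the Golgi, by 0.69, and Ndufaf4, an assembly factor of respiratory complex I, by 0.67. The nucleoside diphosphate kinase gene Nme3 differed by 0.61 and the formin gene Daam1 by 0.56. The clone genes 4930453N24Rik and 4930451I11Rik differed by 0.63 and 0.55.

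**Figure D2:**
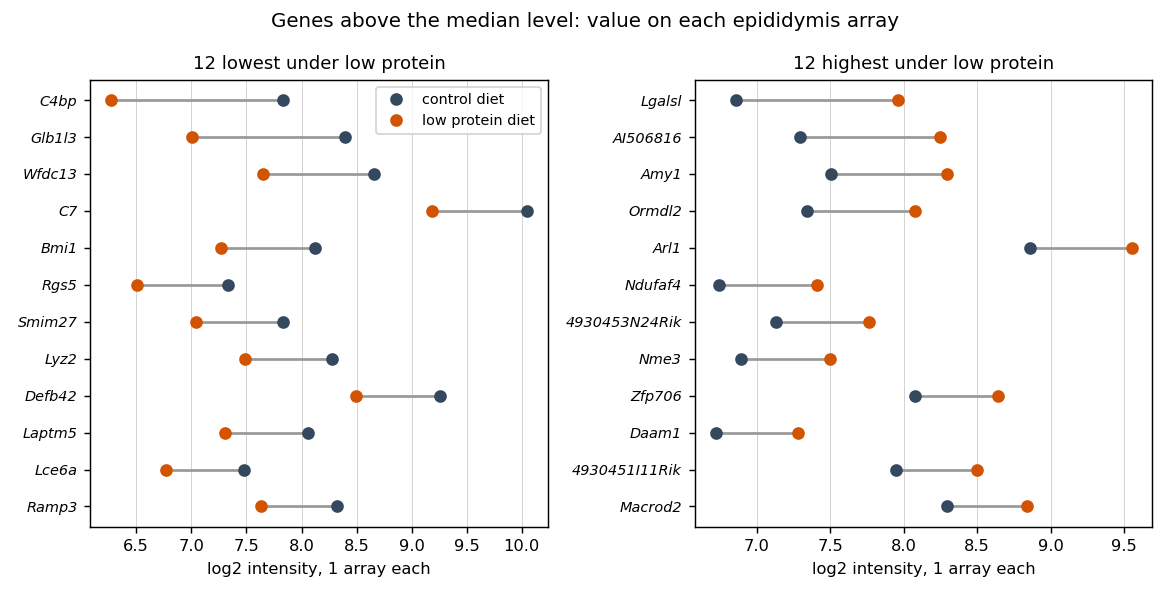
Log2 intensity on the control (dark) and low protein (orange) epididymis array for the 12 genes of lowest and the 12 of highest difference above the median level, 1 array each. C4bp has the longest line on the left (7.83 to 6.27) and Lgalsl on the right (6.86 to 7.96).

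Where a gene had a second probe set, that probe set did not reach the same difference. Over 730 genes with more than 1 probe set above the filter, the differences of the brightest and the next probe set had a Pearson's r of 0.23; these are genes on 1 pair of arrays and not independent replicates. Among them were 8 genes past 0.5, named here after their values were seen. In 0 of the 8 did the second probe set also pass 0.5, and in 4 it had the same direction. Zfp706 differed by 0.56 on its brightest probe set and by -0.08 on the next. Macrod2, an ADP-ribose hydrolase gene, differed by 0.54, 0.08 and 0.15 on its 3 probe sets above the filter. Atad2b differed by -0.54 and -0.0015, Gnb1l by 0.51 and -0.02, Hoxd3os1 by 0.55 and -0.04, and Ptrhd1 by -0.54 and 0.19. The collagen gene Col6a5 (-0.51 and -0.30) and Timm8a1 (-0.50 and -0.33) had 1 direction on both. Zfp706 and Macrod2 stand among the 12 highest genes through the brightest probe set alone.

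Macrophage genes were lower together under low protein. Of 32 listed genes 28 were tested, and 26 of the 28 were lower, against 53.9% of all genes tested. By at least 0.5, 10 of the 28 were lower, and 1.11% of all genes were. Their median difference was -0.38, beside -0.01 over all genes. The other 4 listed genes were below the filter (Ms4a7, Spi1, Clec10a and Cd163), and their differences ran from -0.44 to -0.02. The summed signal of all 32 genes on the low protein array was 74.3% of that on the control array. In a tissue sample, fewer macrophages and less RNA per macrophage cannot be told apart.

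Mpeg1, described above, led this list. Lyz2 was at 8.27 under control and 7.49 under low protein, and Lyz1 at 6.44 and 5.68; these lysozyme genes are close copies, so their probes may share signal. The genes that follow are named after their values were seen. Cd68, a lysosomal glycoprotein of macrophages, was at 7.11 and 6.41, and Adgre1, which encodes the F4/80 antigen, at 6.45 and 5.92. The Fc receptor chain gene Fcer1g differed by -0.63, Cd53 by -0.60, Lgals3 by -0.55 and Aif1 by -0.54. The receptor gene Csf1r, for the growth factor of macrophages, was at 7.41 and 7.18, a smaller difference of -0.23. The mannose receptor gene Mrc1 differed by -0.43 and the fractalkine receptor gene Cx3cr1 by -0.42. The integrin gene Itgam (0.09) and Ms4a6c (0.01) were the 2 that were not lower.

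The transcription factor PU.1, the product of Spi1, is a main regulator of macrophage genes and binds a core of GAGGAA. Upstream sequence is shown for the most strongly lower gene of the list, Mpeg1, and for Laptm5 and Cd68, which were picked because their windows hold this core. Each sequence is the 250 bases before the first gene start listed by RefSeq on GRCm38.p6, read 5′ to 3′ on the gene's strand, with GAGGAA or its reverse complement TTCCTC in capitals: Mpeg1 at chr19:12460520-12460769 (plus strand), Laptm5 at chr4:130913066-130913315 (plus strand) and Cd68 at chr11:69666171-69666420 (minus strand).
Mpeg1: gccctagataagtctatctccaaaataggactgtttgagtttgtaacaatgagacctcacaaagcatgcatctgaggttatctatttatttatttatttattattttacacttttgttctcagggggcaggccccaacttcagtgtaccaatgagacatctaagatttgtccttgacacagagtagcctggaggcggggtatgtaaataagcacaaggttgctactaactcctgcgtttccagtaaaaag
Laptm5: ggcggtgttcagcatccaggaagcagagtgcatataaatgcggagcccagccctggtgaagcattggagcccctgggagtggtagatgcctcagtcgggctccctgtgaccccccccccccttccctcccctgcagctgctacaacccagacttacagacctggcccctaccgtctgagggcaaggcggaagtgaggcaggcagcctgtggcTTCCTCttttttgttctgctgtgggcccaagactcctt
Cd68: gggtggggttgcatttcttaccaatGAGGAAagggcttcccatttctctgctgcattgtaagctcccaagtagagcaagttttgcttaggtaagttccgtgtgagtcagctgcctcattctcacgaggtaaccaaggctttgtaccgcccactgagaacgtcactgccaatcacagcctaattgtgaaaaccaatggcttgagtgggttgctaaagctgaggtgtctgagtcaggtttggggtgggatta
The core lies in this window of Laptm5 (reverse strand) and Cd68 (forward strand), and these letters are not in the window of Mpeg1. Nor are they in those of Lyz2, Lyz1 and Fcer1g, so 2 of the 6 most strongly lower genes with a promoter in the table held the core. The windows of Itgam (0.09) and F13a1 (-0.03), which differed little, hold it as well. Of the 28 tested macrophage genes 23 had a promoter in the table, and 12 of the 23 (52.2%) held the core on either strand, against 23.1% of 27025 promoters of the same length. A match of letters describes the sequence and does not show binding.

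Genes of antigen presentation were lower as well. All 6 tested genes of the MHC class II list were lower, against 53.9% of all genes, with a median of -0.29. Of the 11 listed, 4 were below the filter and 1 had no probe set of its own. Cd74, the invariant chain, was at 8.47 under control and 7.93 under low protein, and H2-Aa at 8.96 and 8.53. H2-Eb1 differed by -0.31 and H2-Ab1 by -0.28. Most lymphocyte and granulocyte genes were too dim: 16 of 22 with a probe set were below the filter, among them Cd8a, Cd79a and S100a8. The 6 that passed had a median of -0.17 and differences from -0.29 (Cd3e) to -0.01 (Nkg7), with the leukocyte gene Ptprc at -0.18. Cd52, also among the 6, was at 13.5 under control and 13.4 under low protein, far above Ptprc (6.41 and 6.24). Which cells its signal comes from was not measured.

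Complement genes had a median of -0.18, and 15 of 21 tested were lower, against 53.9% of all genes. By at least 0.5, 3 of the 21 were lower and 0 higher, against 1.11% and 0.604% of all genes. These 3 were C4bp, C3ar1 and C7, given above. The C1q chains, which macrophages make and which start the classical pathway, differed by -0.46 (C1qa), -0.38 (C1qc) and -0.25 (C1qb). The 3 chains are also counted in the macrophage list. C2 differed by -0.42, C1s1 by -0.41 and C4b by -0.29. The inhibitor genes Cd59a and Cd59b differed by 0.40 and 0.23, and Clu, a luminal protein that also binds complement, by -0.05.

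Of 27 tested fibroblast and matrix genes 21 were lower, against 53.9% of all genes, with a median of -0.23. The summed signal of the list was 86.3% of control. Only Col1a1 was lower by 0.5 or more (1 of 27, against 1.11% of all genes), so the list differed by small amounts in many genes. The chains of type I collagen were at 9.90 under control and 9.38 under low protein for Col1a1, and at 9.98 and 9.50 for Col1a2. Mfap5, of elastic microfibrils, and Ogn, a small proteoglycan, differed by -0.496 and -0.49. Col3a1 differed by -0.35 and Col6a1 by -0.42. Other matrix genes lay close to 0 or above it: Fn1 differed by 0.08, Col6a3 by 0.04 and Postn by 0.22.

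Vessel genes were lower by small amounts. Of 20 endothelial genes 19 were lower, against 53.9% of all genes, with a median of -0.14. By at least 0.5, 2 of the 20 were lower, against 1.11% of all genes. Ramp3 was at 8.32 under control and 7.63 under low protein, and Tek, the angiopoietin receptor gene, at 6.34 and 5.68. Kdr, a receptor for the vessel growth factor VEGF, differed by -0.38, the junction gene Cdh5 by -0.08 and Pecam1 by -0.17. Flt1 was the 1 that was higher (0.06). The pericyte gene Rgs5 (-0.83) is not in this list.

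Genes of fat cells were uneven. Cd36, Car3 (a carbonic anhydrase of fat and muscle) and Lpl (lipoprotein lipase) differed by -1.54, -0.91 and -0.83, while Plin1, which coats fat droplets, differed by -0.12, Lipe by -0.01 and Plin4 by 0.17. The median over 12 tested genes was -0.14, and it was 0.06 over the 4 that were left when the dimmest 50% of genes were filtered out. The fat cell genes Adipoq, Fabp4 and Lep were below the filter.

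**Figure D3:**
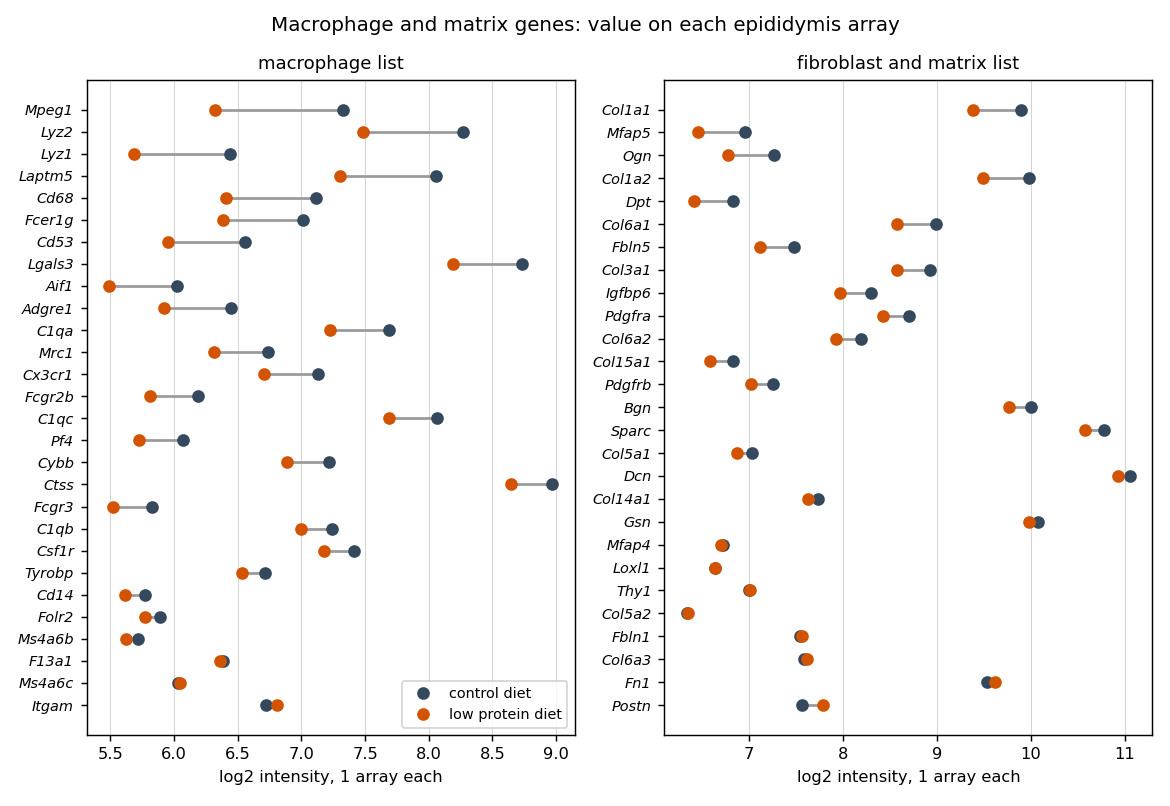
Log2 intensity on the control (dark) and low protein (orange) epididymis array for each tested gene of the macrophage list (left, 28 genes) and of the fibroblast and matrix list (right, 27 genes), 1 array each. The low protein value lies to the left for 26 of 28 macrophage genes and for 21 of 27 matrix genes.

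The muscle of the duct wall differed little. Of 19 smooth muscle genes 0 differed by 0.5 in either direction, 8 were lower, against 53.9% of all genes, and the median was 0.02. The range was from -0.15 (Myl9) to 0.19 (Tagln), and the summed signal under low protein was 100.9% of control. The muscle signal was thus of nearly equal size on both arrays. Muscle genes do not measure how much stroma, vessel or fat each sample held. Whether the macrophage, matrix and endothelial differences come from the make-up of the samples was not tested.

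**Figure D4:**
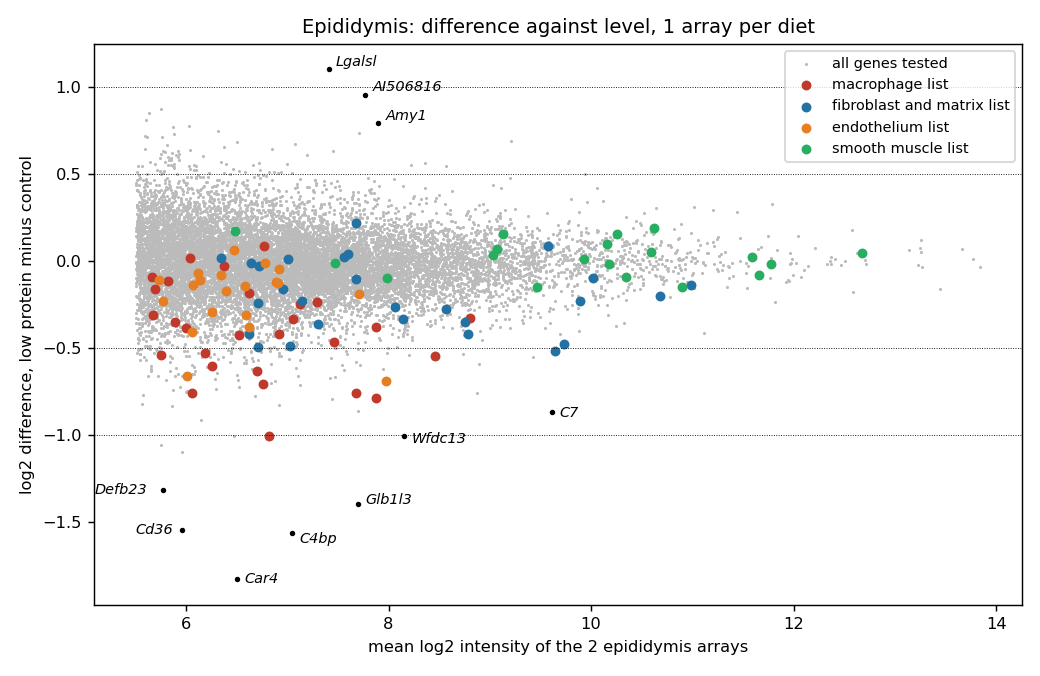
Log2 difference (low protein minus control) against the mean log2 intensity of the 2 epididymis arrays for 13587 genes (grey), with the macrophage, matrix, endothelium and smooth muscle lists in colour and dotted lines at 0.5 and 1 in both directions. The scatter is widest among dim genes, the macrophage genes lie mostly below 0 (median -0.38) and the smooth muscle genes around 0 (median 0.02).

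Secreted products of principal cells were mostly close to each other on the arrays. The luminal secretory list had a median of -0.06, with 15 of 22 tested genes lower, against 53.9% of all genes. By at least 0.5, 2 of the 22 were lower, against 1.11% of all genes. These were Glb1l3 and Trf, the iron carrier transferrin, at 7.76 under control and 7.08 under low protein. Abundant products differed by less: Gpx3, a secreted glutathione peroxidase, was at 12.0 and 11.9, Clu at 12.1 on both, Spink8 at 12.4 on both and Ptgds, a prostaglandin synthase and lipid carrier, at 11.6 and 11.9. Adam7, a membrane protein passed on to sperm, was at 12.5 and 12.7.

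Beta-defensins and protease inhibitors held single genes apart from their families. Of 40 beta-defensin genes 24 were tested, with a median of -0.04, and 2 were lower by at least 0.5 (1.11% of all genes were), Defb23 and Defb42. Defb30 came next, at -0.495 (6.23 and 5.73). The 29 tested Wfdc, Spink and Spint genes had a median of 0.02. Of these, Wfdc13 was the 1 lower by at least 0.5, against 1.11% of all genes. Spint5 and Spink11 differed by -0.496 and -0.490, just short of 0.5. Lipocalins had 2 of 11 genes above the filter, Lcn2 (-0.21) and Lcn12 (0.21). Cystatins had 2 of 8, Cst3 (-0.09) and Cst11 (0.14).

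The clear cell list was uneven, with a median of -0.06. Car4, a member of this list, was lower as given above, but which cells of the tissue its signal comes from was not measured. The other carbonic anhydrase gene Car2 differed by -0.07. The proton pump subunit genes Atp6v0d2 and Atp6v1c2 differed by -0.44 and -0.29, while Atp6v1b1 and Atp6v1g3 differed by 0.19 and 0.21. The clear cell transcription factor gene Foxi1 differed by -0.20. Basal and junction genes had a median of -0.12, with 15 of 20 lower, against 53.9% of all genes, and 0 past 0.5. The largest differences were Krt15 (0.45), Krt17 (-0.44) and Krt19 (-0.40).

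Pathways that answer to diet showed few differences in this tissue. Genes of the amino acid response, which the factor Atf4 switches on when amino acids are short, had 0 of 31 past 0.5 in either direction and a median of -0.05. Asns, asparagine synthetase, was at 8.28 under control and 8.11 under low protein, Trib3 differed by 0.15, Ddit3 by -0.37, Psat1 by -0.34 and Sesn2 by 0.29. Cholesterol synthesis genes had a median of -0.13, with 14 of 20 lower, against 53.9% of all genes, and 0 past 0.5. The largest difference was that of Ebp at -0.38. Fatty acid synthesis genes had a median of -0.06, with 13 of 19 lower, against 53.9% of all genes. They ran from Elovl7 at -0.32 to Acss2 at 0.37. Insulin and IGF genes had a median of -0.01, with the largest differences in Irs2 (0.36), Igfbp6 (-0.34) and Akt2 (0.26).

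General cell machinery differed by small amounts. The medians were 0.01 for 53 ribosomal proteins, -0.0034 for 74 respiratory chain genes, 0.04 for 20 chaperones of the endoplasmic reticulum, -0.06 for 14 heat shock genes and -0.10 for 38 proteasome genes, all with 0 genes past 0.5. Of the proteasome genes 29 of 38 were lower and of the heat shock genes 10 of 14, against 53.9% of all genes. The 5 tested assembly factors of complex I had a median of 0.04. Ndufaf4 was the 1 past 0.5, against 0.604% of all genes higher by at least 0.5. Androgen signalling had 6 tested genes, with a median of -0.08 and none past 0.5. Genes that follow handling and time of day were also near 0: circadian clock genes had a median of 0.0048, immediate early genes -0.06 and glucocorticoid response genes -0.04, again with 0 past 0.5.

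Interferon-induced genes were lower in 14 of 15, against 53.9% of all genes, with a median of -0.19 and 0 past 0.5. The largest differences were Oas1a (-0.47), Gbp3 and Tap1 (both -0.39). Cell cycle genes had a median of -0.18 over the 14 tested. Of these, Plk1 (-0.62) and Ccnb2 (-0.57) were lower by at least 0.5, against 1.11% of all genes. The median was -0.01 over all 23 with a probe set when dim genes were kept. The 29 tested antioxidant and glutathione genes had a median of 0.04. Gpx8, an endoplasmic reticulum peroxidase, was the 1 past 0.5, at 7.72 and 7.16. Lower by at least 0.5 were 1.11% of all genes.

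**Figure D5:**
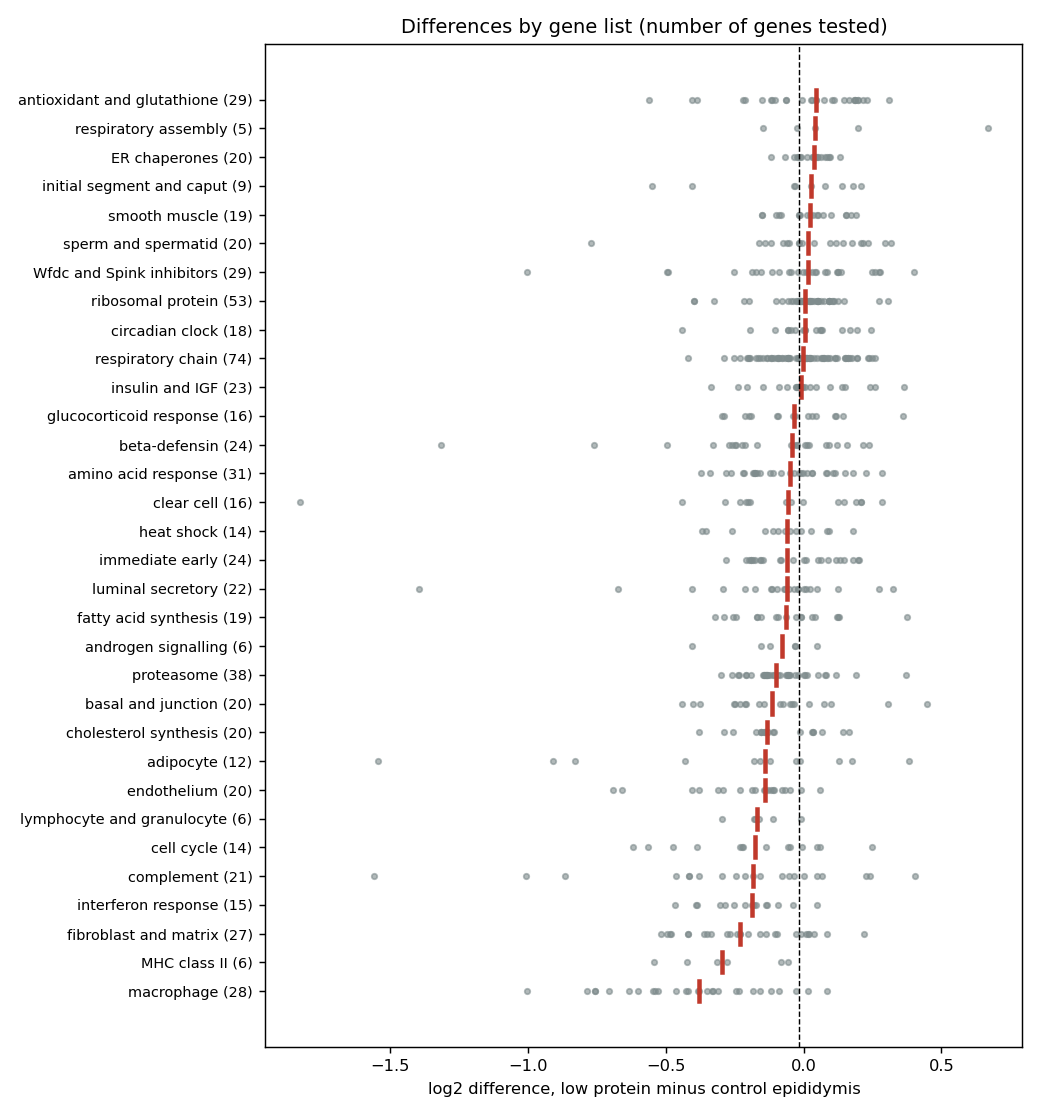
Log2 differences, low protein minus control epididymis, for each tested gene (grey points) of the gene lists with 5 or more tested genes, with the list's median as a red bar and the median of all 13587 genes as a dashed line. The macrophage list has the lowest median (-0.38) and the antioxidant and glutathione list the highest (0.04).

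In low protein sperm the list medians differed from those in epididymis, and that contrast of medians was not tested. Over the tested genes the median difference between low protein and control sperm was 0.24 for macrophage genes (-0.38 in epididymis), -0.09 for matrix genes (-0.23 in epididymis) and 0.83 for sperm and spermatid genes (0.02 in epididymis). Across 13587 genes the sperm and epididymis differences, which share no array, had a Pearson's r of 0.05, and 53.1% had the same sign. Of the 151 genes lower by at least 0.5 in epididymis, 84 were lower in sperm, and of the 82 higher genes 50 were higher in sperm. Over all genes tested the median sperm difference was -0.08, so most genes were lower in sperm. The exact share of all genes lower or higher in sperm is not given here, so no overlap is read from these counts. Low protein sperm replicates 1 and 2 lay far apart, with a Pearson's r of 0.88 over the same genes, against 0.96 to 0.98 between control sperm arrays.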

How the data were processed

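The authors deposited log2 intensities, 1 value per probe set and array, and the submitters' processing notes name RMA. The sources used here give no version, annotation or build. The values themselves show the log2 scale, and array medians lay between 6.08 and 6.17. RMA usually includes quantile normalization, which hides a change in total RNA. Depth has no meaning for arrays, and their number limits the precision. Of 33660 probe sets, 21222 carried 1 gene, 1541 several and 10897 none; a GRCm38 gene table gave 21137 current symbols by gene identifier. The probe set with the highest mean over the 2 epididymis arrays stood for a gene, and the lowest 30% of genes by that mean were left out.

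Differences are low protein minus control. No test was possible in epididymis. A fit of how far the diet difference in epididymis departs from that in sperm, made with limma 3.58.1 in R 4.3.3 (lmFit, eBayes, two-sided, Benjamini-Hochberg over 13587 genes, threshold 0.05) after a test on simulated data, takes its whole spread from the sperm arrays, so it gives no error for the tissue pair and supports nothing in the text.

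The members and the 36 gene lists were chosen with earlier results of these data known. Named genes were the 12 highest and 12 lowest differences above the median level, every gene past 1, the 3 largest of each list and markers of the tissue; others are marked in the text or, in the lists, were picked as examples after their values were seen. Alternatives were other normalizations, other filters, averaging the probe sets of a gene, and each sperm replicate left out.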

Additional observations from a re-analysis of the deposited data

Results flagged for a closer look

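Probe sets that name no single gene entered no comparison above. Of 6617 such probe sets above the same level, 25 were higher and 37 lower by at least 1 under low protein, 0.937% in all, against 0.081% of the genes tested. The SD of their differences was 0.29, beside 0.19 for the genes. They are given because they lie outside the main measurement and the 25 were higher under low protein than on the control array; more of these probe sets were lower than higher. What they measure is not analysed here.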

How the results depend on the processing

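No paired analysis was possible because each epididymis group has 1 array, and for the same reason none could be left out. Median centring, quantile normalization, cyclic loess, the filter on all 8 arrays and averaging the probe sets of a gene kept the 4 counts of genes past 0.5 and 1 within 1.5 times of 82, 151, 1 and 10. The counts and the shares past 0.5 changed with the filter on dim genes. With no filter (19411 genes) 260 were higher and 303 lower by at least 0.5, and 6 and 18 by at least 1. With the lowest 50% left out (9705 genes) these were 30 and 80, and 6 genes were lower by 1. Of the 151 lower genes, 119 remained past 0.5 after centring and 134 after cyclic loess. Higher genes were 46.2% of those past 0.5 with no filter. No named gene past 0.5 turned its sign under any of these; Macrod2 and Zfp706 came to 0.18 and 0.24 as means of all their probe sets, those below the filter included. List medians moved by over 0.1 with the filter alone: in 4 of 36 lists with no filter, in 4 with the lowest 50% left out and in 2 with the filter on all 8 arrays. Among them, the initial segment and caput list came to -0.11 over 4 genes with the lowest 50% left out, the lymphocyte and granulocyte list to -0.01 over 22 genes with no filter, and the cell cycle list to -0.05 over 16 genes with the filter on all 8 arrays; the others were the cell cycle list with no filter and the adipocyte list, both given above, and the blood, other male tract and cystatin lists. The limma fit of the difference between tissues, which has no spread of its own in epididymis, called 0 genes. At an unadjusted p under 0.05 there were 408. With 1 sperm array left out, the fit called 0 to 1291. The 1291 came without low protein sperm replicate 1, and leaving out any other control or low protein sperm array gave the 0. Without either low protein sperm replicate, only the control sperm arrays give the spread. Why the 2 replicates differ in this was not tested. The fit called 0 with an intensity trend, robust eBayes, cyclic loess or no filter. These counts say nothing about the error of the tissue pair.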
